A study of Homo sapiens with 12 samples.

Results

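The comparison described here is the 24 h response of 624Mel cells to interferon gamma (IFNγ) in the presence of a control siRNA, and it rests on 6 of the 12 libraries of the series. The members are the 3 siCTRL + IFNγ and the 3 siCTRL libraries, and the genes described are the Ensembl IDs whose mean reached 2 TPM (a transcript share on a scale common to all libraries) in one group or the other, which were 12249 of the 40173 IDs in the table. 624Mel is an established human melanoma line of the pigmented, melanocytic type. Both groups were reverse transfected with a non-targeting control siRNA, and 24 h later one of them received 5 ng/mL recombinant IFNγ for a further 24 h while the other did not. The other 6 libraries, transfected with an siRNA against the melanocyte transcription factor MITF and grown with or without the same IFNγ, were read beside them. They entered the same fit and carry the same replicate numbers, so they are not independent of the 6. Each condition had 3 libraries, described in the study as independent experiments with one cell line, so the spread between them is that of repeated cultures.

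IFNγ is the cytokine by which activated T cells and natural killer cells address other cells. It binds a receptor of IFNGR1 and IFNGR2 chains, which activates the kinases JAK1 and JAK2, and STAT dimers then move to the nucleus and bind palindromic sites called gamma-activated sequences (GAS). Among the first genes switched on is the transcription factor IRF1, which together with other IRF proteins acts on interferon-stimulated response elements (ISRE) of a second tier of genes. In tumour cells the response is known for raising antigen presentation, chemokines that attract T cells, antiviral proteins and inhibitors of T cells.

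Stretches of promoter with these sites are shown for 7 genes that rose, because they stand for the factors, antigen presentation, GBP, chemokine and antiviral groups described below. They were read from RefSeq windows on GRCh38.p14, which run from 250 bases before to 50 bases after the annotated start, and all lie before the start. Capitals mark letters that match the GAS pattern TTCNNNGAA or the ISRE pattern (GAAA, any 2 bases, GAAA) on either strand, and the line of each gene is written 5′ to 3′ on that gene's own strand. IRF1 and IRF9 hold a GAS match, and the others hold 1 or more ISRE matches, 2 of which overlap in B2M and in TAP1. A match of letters is a description and not evidence of binding.
IRF1, chr5:132490869-132490917, minus strand: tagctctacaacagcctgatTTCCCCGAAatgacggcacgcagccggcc
IRF9, chr14:24161182-24161230, plus strand: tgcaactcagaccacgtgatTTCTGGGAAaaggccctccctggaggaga
TAP1, chr6:32853803-32853858, minus strand: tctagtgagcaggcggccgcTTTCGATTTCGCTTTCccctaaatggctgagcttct
B2M, chr15:44711353-44711408, plus strand: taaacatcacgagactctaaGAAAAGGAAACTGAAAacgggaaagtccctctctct
GBP1, chr1:89065306-89065355, minus strand: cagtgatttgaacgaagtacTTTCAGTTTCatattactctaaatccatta
CXCL10, chr4:76023689-76023738, minus strand: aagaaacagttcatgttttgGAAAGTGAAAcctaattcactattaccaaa
IFI6, chr1:27672256-27672368, minus strand: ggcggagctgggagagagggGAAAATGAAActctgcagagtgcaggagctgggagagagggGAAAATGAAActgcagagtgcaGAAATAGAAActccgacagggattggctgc

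The 6 libraries were similar in their totals and differed in other respects. The listed values summed to between 975336 and 982406 TPM, and 11850 to 12189 IDs per library had at least 2 TPM. TPM keep no read numbers, so the depth of each library is unknown. Correlations between the 6 libraries across genes were 0.952 to 0.995. Mitochondrially encoded genes took 14.2%, 7.42% and 14.8% of the TPM in siCTRL and 16.9%, 8.45% and 15.7% in siCTRL + IFNγ replicates 1, 2 and 3, so replicate 2 was low in both groups. Genes annotated as rRNA or rRNA pseudogenes took 3.60% of the TPM in siCTRL + IFNγ replicate 1 and between 0.171% and 0.709% in the other 5 libraries. That library also had the lowest median over tested IDs, 17.96 TPM against 19.5 to 22.7, and correlated at 0.987 and 0.989 with the other libraries of its group, which correlated at 0.995 with each other. The part of these differences in the results was not tested, and results without single libraries are given where they change a call. Melanocytic genes marked the cells as labelled, with all 19 of the list tested at a summed level of 9661 to 12644 TPM per library. Of 13 markers of leukocytes, keratinocytes, endothelium, fibroblasts and epithelium, 11 were under 2 TPM in both group means. The 2 tested ones, LYZ (2.44 to 1.46 TPM) and LUM (4.77 to 2.57 TPM), were lower with IFNγ by adjusted p, and the 13 summed to 8.72 to 10.2 TPM in siCTRL and 5.05 to 6.70 TPM with IFNγ.

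Within 24 h the response was large and almost one-sided. A gene was counted as called when its adjusted p was under 0.05 (limma, Benjamini-Hochberg) and its log2 fold change was 1 or more in either direction. 309 IDs were called higher, 2.52% of those tested, and 13 were called lower, 0.106% of those tested. At these shares a short list can hold no call without differing from the tested IDs as a whole. Calls in the lower direction made up 4.04% of all calls, and 14.6% when the libraries were quantile normalized, with 299 higher and 51 lower. Of the 39 additional lower IDs under quantile normalization, 37 had under 5 TPM in untreated cells. By adjusted p alone the 2 directions were close in number, 812 higher (6.63%) and 780 lower (6.37%), since 767 of the lower IDs missed the fold limit against 503 of the higher. Counts of list members at an unadjusted p under 0.05 are given below without the share of all tested IDs at that limit. That share includes at least these 812 and 780 IDs. The median log2 fold change was 1.96 for the called-higher IDs and -0.07 for all tested IDs. Of the 309, 16 rose by a log2 of 5 or more, 59 by 3 to 5, 74 by 2 to 3 and 160 by 1 to 2. Many started low: 154 had a mean under 2 TPM without IFNγ, 73 of them under 0.5 TPM, 143 had 2 to 100 TPM and 12 had 100 TPM or more. The 154 could be tested only because their treated mean reached 2 TPM, which favours a rise, and 48.7% of the 316 IDs tested in this way were called higher against 1.30% of the 11933 with 2 TPM or more without IFNγ. For gene lists, the members that entered through the treated group alone are therefore counted apart, and for these the count of rises is partly set by the filter. The treated cells carried 47 of them at a mean of 100 TPM or more. All 3 treated libraries lay above all 3 untreated libraries for each of the 309, and the groups were separated in this way, in either direction, for 29.8% of all tested IDs. For a single gene the smallest two-sided p of an exact permutation test is 0.1 at this group size, so calls rest on the limma fit across genes. Together the called-higher genes took 0.481%, 0.535% and 0.489% of the listed TPM in the siCTRL libraries and 2.36%, 2.86% and 2.54% with IFNγ.

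**Figure D1:**
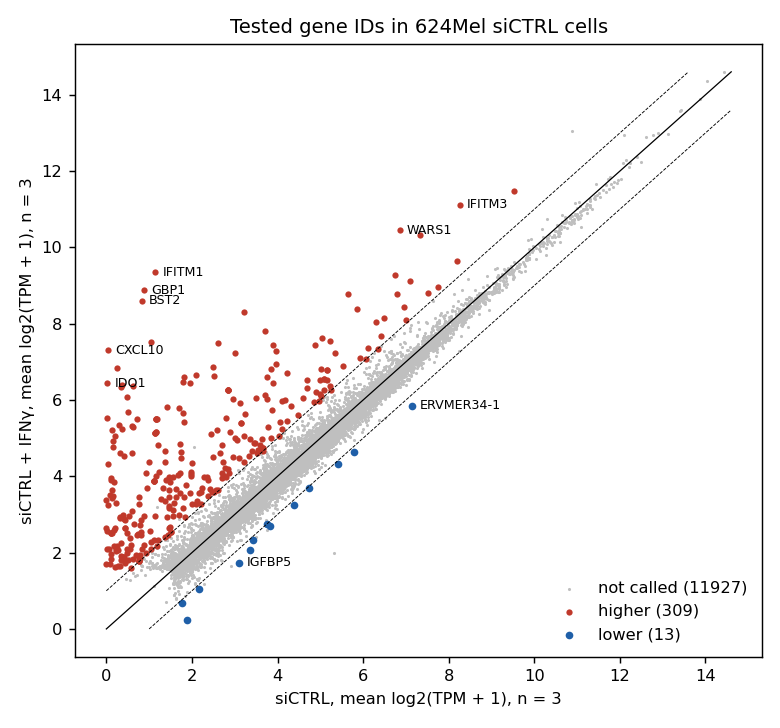
Each point is 1 of 12249 tested gene IDs, with the mean log2(TPM + 1) of 3 siCTRL libraries on the x axis and of 3 siCTRL + IFNγ libraries on the y axis. The solid line marks equal values and the dashed lines a log2 difference of 1. The 309 red points (higher) lie above the upper dashed line, 160 of them at a log2 difference under 2, and the largest differences are found where untreated expression is near 0, while the 13 blue points (lower) stay close to the lower dashed line.

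Signalling genes upstream of transcription gave no call, where 2.52% of all tested IDs were called higher and 0.106% lower. The receptor chains IFNGR1 and IFNGR2 and the kinases JAK1, JAK2 and TYK2 were all tested, none was called by limma, 0 had an unadjusted p under 0.05, and their log2 fold changes lay between -0.07 and 0.10. Of 5 tested STAT genes in the list, STAT2 and STAT3 rose. STAT2, a subunit of the factor that binds ISREs, had 16.8, 19.0 and 16.8 TPM in siCTRL and 90.8, 118 and 102 TPM with IFNγ (log2 fold change 2.49, standard error 0.11, adjusted p = 3.1e-09). STAT3, a factor best known from interleukin-6 signalling, had 28.9, 33.0 and 33.1 TPM in siCTRL and 86.0, 132 and 122 TPM with IFNγ (log2 fold change 1.79). The 3 treated libraries lay above the untreated ones for both genes.

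In the IRF family, IRF1 rose the most. Expression of IRF1 (ENSG00000125347, chromosome 5 from 132440440 to 132508719) was 2.31, 2.83 and 2.33 TPM in siCTRL and 76.8, 102 and 85.1 TPM with IFNγ, a log2 fold change of 4.66 (standard error 0.12, adjusted p = 1.6e-11 from limma), with no overlap between groups. IRF9, which completes the ISRE-binding complex with STAT2, rose from 7.93 ± 0.827 to 41.2 ± 3.19 TPM (mean ± SD, n = 3) by 2.24 on the log2 scale. IRF4, a lymphocyte and pigment cell factor, was already present and rose from 13.4 ± 0.995 to 31.5 ± 3.10 TPM, with the log2 value 1.18. IRF2, which competes with IRF1, had 19.8, 19.4 and 15.6 TPM in siCTRL and 29.3, 33.3 and 29.4 TPM with IFNγ and a log2 fold change of 0.72, under the fold limit. IRF8, a factor of myeloid cells, was listed at 0 TPM in all siCTRL libraries and reached a mean of 1.13 TPM, too low to be tested, and IRF7 stayed under 0.4 TPM in both means.

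A list of regulators known to be induced by interferon, chosen for that property, had 13 tested genes, of which 12 rose. Among them 4, BATF2 included, entered through the treated group alone, and of the other 9 genes 8 rose. BATF2, a leucine-zipper factor, went from almost nothing to 79.9, 91.0 and 81.1 TPM, and NLRC5, the transactivator of MHC class I genes, had 1.84, 3.05 and 2.03 TPM in siCTRL and 46.4, 63.8 and 54.6 TPM with IFNγ. CIITA, the corresponding transactivator of MHC class II genes, was called with means of 0.580 to 5.78 TPM. Nuclear body genes shared in the rise, among them SP100 (25.0 to 91.8 TPM) and PML (16.1 to 62.0 TPM), and the weakest called member was SP140, with 0.354, 0.725 and 1.09 TPM in siCTRL and 2.37, 3.53 and 2.21 TPM with IFNγ and a log2 fold change of 1.11. The call of SP140 was lost without siCTRL replicate 1 (0.95), without siCTRL + IFNγ replicate 2 (0.96) and under quantile normalization (0.91). The exception was ETV7, an ETS factor, with 2.77, 2.88 and 2.61 TPM in siCTRL and 2.55, 2.35 and 2.14 TPM with IFNγ, a difference of -0.17 on the log2 scale that did not pass the test.

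Of 9 tested genes known as brakes on JAK-STAT signalling, 3 rose and 1 fell, and 2 of the 3, SOCS1 and SOCS3, entered through the treated group alone. SOCS1, which inhibits JAK kinases directly, had 0.242, 0.221 and 0.341 TPM in siCTRL and 3.80, 4.63 and 2.96 TPM with IFNγ. SOCS3 rose from 0.942 ± 0.305 to 11.96 ± 1.06 TPM, and USP18, which removes ISG15 from proteins and blocks the type I interferon receptor, from 5.03 ± 0.340 to 36.2 ± 2.74 TPM. Their log2 fold changes were 1.91, 2.75 and 2.62. SOCS2 is described with the genes that fell.

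The 10 largest rises came from several families and shared a low starting level. IFITM1, a membrane protein that restricts virus entry, had 1.71, 0.710 and 1.34 TPM in siCTRL and 634, 705 and 621 TPM with IFNγ (log2 fold change 8.21, standard error 0.14, adjusted p = 3.6e-13). GBP1, the founding guanylate-binding protein, had 0.796, 0.746 and 0.980 TPM in siCTRL and 424, 532 and 456 TPM with IFNγ (log2 fold change 7.996, standard error 0.10, adjusted p = 4.2e-14). BST2, or tetherin, which holds budding virions at the cell surface, had 0.727, 0.679 and 0.928 TPM in siCTRL and 353, 432 and 382 TPM with IFNγ (log2 fold change 7.77, standard error 0.10, adjusted p = 4.2e-14). For each of these 3 genes the lowest treated library was more than 100 TPM above the highest untreated one. Next came CXCL10, GBP5, UBE2L6, IDO1, BATF2, CXCL9 and IFI27, with log2 fold changes from 5.75 to 7.28. Since 1 was added to every TPM before the logarithm, these values understate ratios of genes near 0, which is why no ratio is given.

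**Figure D2:**
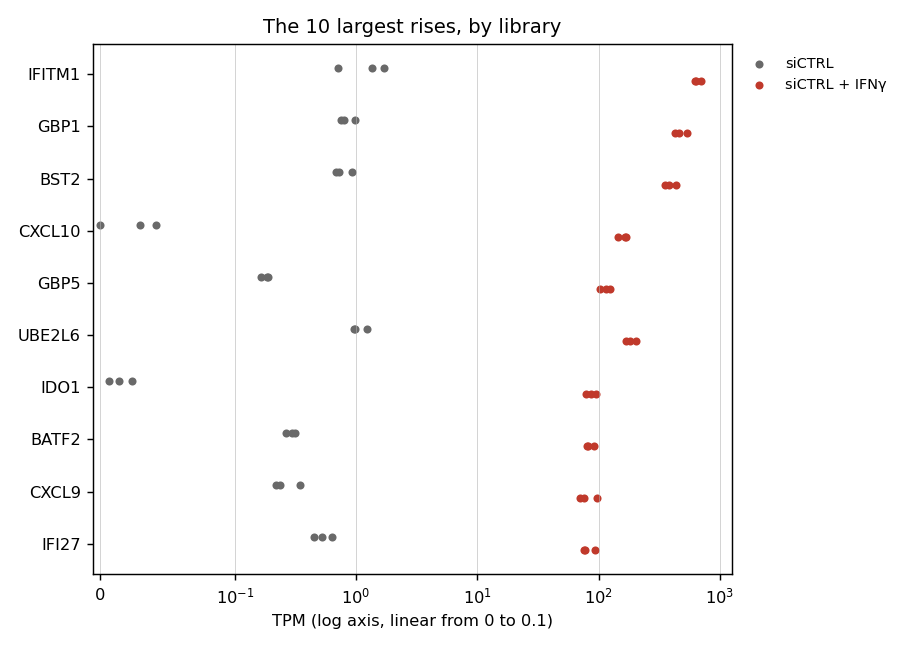
TPM in each of the 3 siCTRL libraries (grey) and the 3 siCTRL + IFNγ libraries (red) for the 10 genes with the largest log2 fold change, on a log axis that is linear from 0 to 0.1. All untreated points lie under 2 TPM and all treated points over 70 TPM, and within a group the libraries lie close together.

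Of the 10 most abundant called genes with a symbol in treated cells, 8 had over 100 TPM without IFNγ, and the other 2, IFITM1 and GBP1, had started near 0. IFITM3 reached the highest level of the 10, with 306, 303 and 311 TPM in siCTRL and 2199.9, 2349.8 and 2126 TPM with IFNγ (log2 fold change 2.86, standard error 0.06, adjusted p = 1.5e-12). WARS1, the cytoplasmic tryptophanyl-tRNA synthetase, had 106, 125 and 115 TPM in siCTRL and 1169, 1574 and 1487 TPM with IFNγ, and IFI6, a mitochondrial antiviral protein, had 157, 167 and 154 TPM in siCTRL and 1259.9, 1330.0 and 1262 TPM with IFNγ. Their log2 fold changes were 3.59 and 3.005. LGALS3BP, a secreted glycoprotein, SPP1, the matrix cytokine osteopontin, PLSCR1, a scramblase with antiviral action, and IFI16, a nuclear DNA sensor, also stood among the 10 most abundant, with treated means of 799.9, 618, 442 and 446 TPM. These 4 had started at 294, 107, 110.3 and 182 TPM, and their log2 fold changes were 1.43, 2.52, 1.99 and 1.29.

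Genes of antigen presentation by MHC class I rose among the heavy and light chains, the peptide transporter and the immunoproteasome. All 5 class I genes reported here were called, with a list median of 2.33. B2M, the invariant light chain, had 133, 148 and 129.6 TPM in siCTRL and 497, 644 and 529 TPM with IFNγ (log2 fold change 2.01, standard error 0.11, adjusted p = 1.6e-08). HLA-B had 2.80, 3.56 and 2.41 TPM in siCTRL and 73.2, 97.7 and 87.3 TPM with IFNγ (log2 fold change 4.47, standard error 0.13, adjusted p = 3.7e-11), the steepest change of the 5. HLA-C rose from 36.5 ± 3.73 to 188 ± 22.3 TPM, and the non-classical HLA-E, a ligand of natural killer receptors, from 13.96 ± 1.53 to 172 ± 19.2 TPM, with log2 fold changes of 2.33 and 3.53. HLA-F went from 3.08 ± 1.26 to 15.2 ± 1.59 TPM. The HLA genes are alike and polymorphic, so reads of this line's alleles may have been divided between them with error. Every gene named by a symbol here was read from a single ID. Whether IDs without a symbol hold reads of class I, peptide loading or other genes of the MHC region was not tested.

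Of 9 tested genes that trim, transport and load peptides, 5 rose, 1 of them (TAPBPL) tested through the treated group alone. TAP1, a subunit of the peptide transporter of the endoplasmic reticulum, had 5.32, 4.67 and 5.36 TPM in siCTRL and 197, 186 and 162 TPM with IFNγ, and its partner TAP2 had 15.9, 19.2 and 16.6 TPM in siCTRL and 49.3, 78.8 and 63.8 TPM with IFNγ. Their log2 fold changes were 4.90 and 1.81, from a TAP2 level that was higher than that of TAP1 without IFNγ and lower than it with IFNγ in each library. The other called members were TAPBP (tapasin, 7.68 to 21.9 TPM), TAPBPL (0.427 to 2.53 TPM) and the trimming peptidase ERAP1 (11.2 to 28.1 TPM). In the proteasome, immunoproteasome genes PSMB8 and PSMB9 and activator subunits PSME1 and PSME2 rose by 2.86, 4.11, 1.62 and 1.47 on the log2 scale. PSMB9, a catalytic subunit, had 0.190, 0.529 and 0.305 TPM in siCTRL and 19.5, 23.4 and 23.3 TPM with IFNγ. PSMB10, the third inducible subunit, had 26.1, 27.3 and 25.7 TPM in siCTRL and 49.4, 50.5 and 48.5 TPM with IFNγ and missed the fold limit at 0.88. PSMB8 and PSMB9 entered the test through the treated group alone. None of 14 constitutive proteasome genes was called (limma, 4 at an unadjusted p under 0.05 and 3 higher by adjusted p), and their log2 fold changes ran from -0.16 to 0.35 with a median of -0.03. Of all tested IDs 2.52% were called higher and 0.106% lower, and 6.63% were higher by adjusted p.

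MHC class II was nearly silent in the IDs listed for it. Each gene was read from the single ID that carries its symbol. A further 59 called-higher IDs had no symbol in the annotation used, and whether any of them holds class II reads was not tested. Of 13 listed genes only CD74, the invariant chain, and CTSS, the protease that degrades it, reached 2 TPM, both with IFNγ alone, and both rose. CD74 had 0.649, 0.779 and 0.490 TPM in siCTRL and 39.4, 50.7 and 43.4 TPM with IFNγ (log2 fold change 4.79, standard error 0.13, adjusted p = 2.0e-11) and CTSS had 1.26, 2.23 and 1.39 TPM in siCTRL and 20.9, 28.5 and 23.6 TPM with IFNγ (log2 fold change 3.28, standard error 0.16, adjusted p = 5.6e-09). The class II chains themselves stayed under 1 TPM in both group means: HLA-DRA was at 0 and 0.0141 TPM, HLA-DPA1 at 0.0593 and 0.565 TPM, and HLA-DMB at 0.113 and 0.725 TPM, without and with IFNγ.

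The guanylate-binding proteins, large GTPases that attack membranes of intracellular microbes, rose in the members that could be tested. These were 5 of 7 listed genes, all called. 4 of them entered through the treated group alone, GBP2 had over 2 TPM before treatment, and the 2 others stayed under 2 TPM in both group means. Summed GBP TPM went from 5.36, 4.74 and 5.80 to 654, 796 and 694. GBP5, a partner of GBP1, had 0.189, 0.165 and 0.184 TPM in siCTRL and 102, 124 and 114 TPM with IFNγ. GBP2 and GBP3 had means of 3.32 to 100.4 and 0.538 to 23.9 TPM, and the weakest member, GBP4, had 0.370, 0.385 and 0.305 TPM in siCTRL and 5.25, 5.74 and 4.85 TPM with IFNγ. The Mx proteins, antiviral GTPases better known from type I interferon, went without such a change. MX1 had 4.68, 5.87 and 5.76 TPM in siCTRL and 5.02, 5.45 and 4.24 TPM with IFNγ, and MX2 had 1.86, 4.07 and 1.84 TPM in siCTRL and 2.48, 2.57 and 2.64 TPM with IFNγ. Treated and untreated libraries overlapped for both, and their log2 differences of -0.13 and 0.05 did not pass the test.

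Apart from the Mx genes, antiviral families moved widely. Of 12 tested IFIT and IFI44 group genes 11 were called, including 6 of the 7 that had 2 TPM or more without IFNγ. IFI27, an interferon-induced mitochondrial protein, had 0.525, 0.629 and 0.451 TPM in siCTRL and 76.8, 92.7 and 75.7 TPM with IFNγ. IFI44L followed with means of 0.119 to 29.3 TPM, and IFIT5, an RNA-binding member, had the smallest called rise (9.96 to 28.2 TPM, log2 1.41). Of the oligoadenylate synthetases, which make the activator of the nuclease RNase L, OAS1, OAS2, OAS3 and OASL rose by 4.42, 3.69, 2.56 and 3.84. OAS1 had 1.64, 1.43 and 1.93 TPM in siCTRL and 55.2, 61.4 and 51.1 TPM with IFNγ. Of these 4, 3 entered through the treated group alone. Among 13 tested restriction factors 6 were called, 3 of them from the 10 with 2 TPM or more without IFNγ, and 11 were higher by adjusted p. The smallest of the 6 calls was EIF2AK2, the RNA-activated kinase PKR, with 28.3, 32.6 and 33.3 TPM in siCTRL and 59.8, 78.8 and 66.1 TPM with IFNγ and a log2 fold change of 1.09, which became 0.98 without siCTRL + IFNγ replicate 2.

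Of 9 tested sensors of foreign nucleic acid, 7 rose, 3 of them from the 5 with 2 TPM or more without IFNγ. DDX60, a helicase, had 1.15, 1.16 and 0.702 TPM in siCTRL and 18.1, 21.5 and 19.4 TPM with IFNγ, and RIGI, the sensor of viral RNA ends, had 1.44, 1.63 and 1.70 TPM in siCTRL and 17.2, 22.9 and 19.9 TPM with IFNγ. STING1, the adaptor of the DNA-sensing pathway, rose least (4.38 to 11.9 TPM, log2 1.25). In the ISG15 system, which attaches a ubiquitin-like protein to other proteins, 4 of 6 tested genes rose, all but ISG15 tested through the treated group alone: the modifier ISG15 (8.08, 6.31 and 11.0 TPM in siCTRL and 339, 303 and 312 TPM with IFNγ), the activating enzyme UBA7, the conjugating enzyme UBE2L6 and the ligase HERC6. UBE2L6 had 0.966, 1.23 and 0.977 TPM in siCTRL and 168, 202 and 182 TPM with IFNγ, the largest change of the 4 with a log2 of 6.49, and UBA7 and HERC6 went from 0.357 to 5.28 and from 1.74 to 6.91 TPM.

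TRIM proteins are ubiquitin ligases, and of 9 tested genes TRIM22, TRIM21, TRIM34 and TRIM5 rose, with log2 fold changes of 5.58, 2.79, 1.23 and 1.03. TRIM22 had 0.469, 0.629 and 0.159 TPM in siCTRL and 57.8, 75.4 and 66.4 TPM with IFNγ. TRIM5 lay near the fold limit, and its value was 0.98 without siCTRL + IFNγ replicate 2, just under 1.00 without siCTRL replicate 1 and just under 1.00 under quantile normalization. Of the 4, 2 entered through the treated group alone. PARP enzymes add ADP-ribose, and PARP14, PARP9, PARP10 and PARP12 rose together with DTX3L, the ubiquitin ligase that pairs with PARP9, by 3.07, 2.54, 2.51, 1.51 and 2.84. PARP1, PARP3 and PARP8 were not called. PARP10 entered through the treated group alone, and of the 7 other tested genes of this list 4 were called. Of 6 listed apolipoprotein L genes 5 could be tested and rose, 4 of them tested through the treated group alone. APOL4 had 0.375, 0.453 and 0.450 TPM in siCTRL and 41.3, 58.2 and 52.2 TPM with IFNγ (log2 fold change 5.16, standard error 0.13, adjusted p = 1.3e-11), and APOL2, the most abundant without IFNγ, had 32.4, 29.5 and 30.5 TPM in siCTRL and 86.9, 98.4 and 89.7 TPM with IFNγ.

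Chemokines that bind CXCR3 on T cells were among the most inducible genes. CXCL10 had 0.0414, 0.0294 and 0 TPM in siCTRL and 165, 167 and 144 TPM with IFNγ (log2 fold change 7.28, standard error 0.12, adjusted p = 3.6e-13), and CXCL9 had 0.235, 0.219 and 0.343 TPM in siCTRL and 70.7, 97.4 and 75.3 TPM with IFNγ (log2 fold change 6.01, standard error 0.12, adjusted p = 1.5e-12). CXCL11 reached 13.6, 17.3 and 11.6 TPM from 0, 0.198 and 0.0227 TPM. The monocyte chemokine CCL2 had 1.46, 2.07 and 1.79 TPM in siCTRL and 15.3, 17.1 and 12.7 TPM with IFNγ, and CCL8 had 0, 0.0423 and 0 TPM in siCTRL and 4.86, 5.96 and 4.10 TPM with IFNγ. Of 12 listed chemokines 7 could be tested and these 5 rose, all 5 tested through the treated group alone, while CXCL2 and CXCL8, typical NF-κB targets, were not called. Of 7 tested cytokines and receptors 4 rose, 3 of them tested through the treated group alone: TNFSF13B (BAFF, 8.42 to 49.0 TPM), IL18BP (1.43 to 9.71 TPM), IL32 (0.673 to 4.63 TPM) and IL15 (0.324 to 2.56 TPM). IL18BP binds and blocks interleukin-18, and BAFF supports B cells. IL6, an inflammatory cytokine, was lower by adjusted p without passing the fold limit, with 1.77, 2.11 and 2.13 TPM in siCTRL and 0.995, 1.30 and 0.996 TPM with IFNγ (log2 fold change -0.52, standard error 0.13, adjusted p = 0.019), and under quantile normalization its log2 fold change was -1.15 and it was called.

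Among 9 tested ligands and receptors that face immune cells, 1 passed all thresholds. ICAM1, the adhesion ligand of the leukocyte integrin LFA-1, had 46.5, 54.0 and 48.0 TPM in siCTRL and 363, 515 and 444 TPM with IFNγ (log2 fold change 3.12, standard error 0.12, adjusted p = 6.2e-10). CD47, the signal that inhibits phagocytosis, had 35.0, 34.6 and 34.6 TPM in siCTRL and 58.1, 68.8 and 64.9 TPM with IFNγ, and NECTIN2, a ligand of lymphocyte receptors, had 18.7, 19.6 and 19.3 TPM in siCTRL and 27.8, 31.8 and 27.8 TPM with IFNγ. Both were higher by adjusted p (7.4e-06 and 1.4e-04, limma) with log2 fold changes of 0.86 and 0.57.

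Tryptophan metabolism gave a contrast of abundance. IDO1, which degrades tryptophan, went from near 0 to a level of 85.9, 94.9 and 78.9 TPM (log2 fold change 6.43, standard error 0.12, adjusted p = 9.8e-13), alongside the WARS1 rise above. The other 3 tested genes of the list were not called. IDO1 entered through the treated group alone, and of the 4 tested genes with 2 TPM or more without IFNγ 1 was called. Of 13 listed complement genes 11 could be tested and 8 were called. 7 of the 8 entered through the treated group alone, and of the 4 tested genes with 2 TPM or more without IFNγ 1 was called. SERPING1, the C1 inhibitor, had 0.0144, 0 and 0 TPM in siCTRL and 40.6, 50.6 and 45.7 TPM with IFNγ. C4B had 0.0556, 0.320 and 0.117 TPM in siCTRL and 34.8, 36.8 and 26.7 TPM with IFNγ, although C4A and C4B differ by few bases and their reads are hard to assign. C1RL, a relative of the protease C1r, had the smallest rise (0.272, 0.427 and 0.702 TPM in siCTRL and 3.74, 3.34 and 2.89 TPM with IFNγ). The surface regulators CD46, CD55 and CD59 were not called.

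Cell death, NF-κB and BCL2 family genes gave 1, 0 and 1 calls, where 2.52% of all tested IDs were called higher and 0.106% lower. Of 10 tested cell death genes 2 were higher by adjusted p and only CASP4, the caspase that senses bacterial lipopolysaccharide, was called, with 9.59, 9.69 and 9.53 TPM in siCTRL and 23.7, 25.0 and 24.3 TPM with IFNγ. CASP1 and MLKL, other cell death genes, were under 2 TPM and not tested, with means of 0 and 1.58 TPM and of 0.366 and 1.53 TPM without and with IFNγ. None of 9 NF-κB genes was called (limma, 3 at an unadjusted p under 0.05, 1 higher by adjusted p), and their median was -0.08. BIK was the 1 of 12 BCL2 family genes that was called (1.57 to 4.34 TPM, tested through the treated group alone), and its log2 fold change of 1.05 became 0.99 without siCTRL replicate 2. Of the 8 interferon genes in the list, IFNG included, 7 were listed at 0 and IFNK had means of 0.0139 and 0.0149 TPM, so none was tested.

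Melanocytic genes kept their level within the fold limit. None of 19 was called (limma, 6 at an unadjusted p under 0.05), where 2.52% of all tested IDs were called higher and 0.106% lower. The list median log2 fold change was 0.03, and values ran from -0.58 to 0.67. Of the 19 genes 2 were higher and 1 lower by adjusted p, where 6.63% and 6.37% of all tested IDs were. By adjusted p alone TRPM1, a melanocyte ion channel, was higher (38.5, 36.0 and 31.9 TPM in siCTRL and 61.3, 53.2 and 56.8 TPM with IFNγ) and MLANA, the antigen Melan-A, was higher (501, 482 and 442 TPM in siCTRL and 625, 597 and 599 TPM with IFNγ), whereas CAPN3, a protease, was lower (506, 478 and 480.1 TPM in siCTRL and 320.5, 329 and 329 TPM with IFNγ). In the neural crest list only TNC, the matrix protein tenascin C, was called among 7 tested genes, with 1.17, 1.86 and 1.53 TPM in siCTRL and 8.91, 15.4 and 12.4 TPM with IFNγ. TNC entered through the treated group alone, and of the other 6 tested genes 0 were called. Genes of cholesterol synthesis, oxidative phosphorylation, extracellular matrix and ribosomal proteins gave no call in the limma fit, with 3, 6, 4 and 10 genes at an unadjusted p under 0.05, and their medians lay between -0.13 and -0.01. At the shares of called IDs given above, lists of this size can hold no call without differing from the tested IDs as a whole. HK1, a hexokinase, was the 1 called gene of 19 tested for glycolysis and hypoxia (66.6 to 136 TPM), at the fold limit with 1.00. The HK1 value was 0.96 without siCTRL replicate 1, 0.91 without siCTRL + IFNγ replicate 2 and 0.96 without siCTRL + IFNγ replicate 3.

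One gene of the integrated stress response stood out from its list. CHAC1, which degrades glutathione, had 6.78, 8.20 and 6.25 TPM in siCTRL and 30.5, 32.8 and 30.8 TPM with IFNγ (log2 fold change 2.01, standard error 0.12, adjusted p = 6.1e-08). The other 14 tested genes were not called and the list median was -0.26. ATF4, PHGDH, DDIT4 and SLC7A11 were lower by adjusted p alone, with log2 fold changes of -0.29, -0.45, -0.46 and -0.78. That count of 4 lay between 1 and 7 over the alternatives, with 1 without siCTRL replicate 2, 2 without any other single library of the 2 groups except siCTRL + IFNγ replicate 2, which kept 4, and 7 with the replicate block.

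Few genes were called lower, and all by a log2(TPM + 1) difference under 2. By adjusted p alone 780 IDs were lower, and 767 of these missed the fold limit. The 13 lower IDs had log2 fold changes from -1.65 to -1.02 (median -1.14), and 11 carry a gene symbol. ERVMER34-1, the envelope gene of an endogenous retrovirus, was the most abundant of them, with 143, 143 and 136 TPM in siCTRL and 54.0, 57.9 and 59.0 TPM with IFNγ (log2 fold change -1.29, standard error 0.12, adjusted p = 9.2e-06). SPRR2D, a cornified envelope precursor of keratinocytes, had 59.4, 49.4 and 53.4 TPM in siCTRL and 25.1, 24.1 and 22.8 TPM with IFNγ (log2 fold change -1.14, standard error 0.09, adjusted p = 8.9e-07), and GASK1B, a Golgi-associated protein, had 37.1, 48.7 and 39.8 TPM in siCTRL and 15.6, 22.6 and 19.9 TPM with IFNγ (log2 fold change -1.08, standard error 0.13, adjusted p = 7.8e-05). In each case all treated libraries lay below all untreated ones.

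IGFBP5, RXRG, SOCS2 and ITGB8 also fell. IGFBP5, which binds insulin-like growth factors, had 7.01, 7.89 and 7.91 TPM in siCTRL and 1.91, 2.73 and 2.39 TPM with IFNγ (log2 fold change -1.37, standard error 0.12, adjusted p = 5.1e-06). Its relative IGFBP2 had 75.8, 83.3 and 68.3 TPM in siCTRL and 142, 163 and 146 TPM with IFNγ. The IGFBP2 log2 fold change of 0.98, in the opposite direction, missed the fold limit and passed it at 1.02 under quantile normalization. IGFBP2 also passed without siCTRL replicate 2 (1.05) and without siCTRL + IFNγ replicate 1 (1.02). Median centring (1.0003) and rescaling without mitochondrially encoded genes (1.002) moved it just over the limit. RXRG, a retinoid X receptor associated with a neural crest-like state of melanoma, had 25.8, 24.9 and 26.0 TPM in siCTRL and 11.2, 12.2 and 12.5 TPM with IFNγ (log2 fold change -1.03, standard error 0.09, adjusted p = 5.0e-06). SOCS2, which restrains growth hormone signalling, had 11.9, 14.1 and 11.7 TPM in siCTRL and 5.36, 6.31 and 5.40 TPM with IFNγ (log2 fold change -1.02, standard error 0.10, adjusted p = 1.4e-05). The integrin subunit ITGB8, an activator of latent TGF-β, had 9.08, 10.7 and 9.72 TPM in siCTRL and 3.24, 4.71 and 4.21 TPM with IFNγ (log2 fold change -1.11, standard error 0.12, adjusted p = 2.1e-05). These values are near the limit, and the calls were lost without siCTRL + IFNγ replicate 1 for ITGB8 (-0.99), RXRG (-0.99), GASK1B (-0.94) and SOCS2 (-0.98). Without siCTRL replicate 2 they were lost for GASK1B (-0.97) and SOCS2 (-0.94), and without siCTRL + IFNγ replicate 3 for SOCS2 (-0.99). The call of RXRG was also lost under quantile normalization, and that of SOCS2 under median centring and after rescaling without mitochondrially encoded genes, each at a value just under the limit (-0.997).

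The remaining lower IDs were 4 genes with a symbol and 2 pseudogenes. ATP6V0A4, a subunit of the proton pump, had 9.29, 8.67 and 10.02 TPM in siCTRL and 2.42, 3.44 and 3.81 TPM with IFNγ (log2 fold change -1.30, standard error 0.13, adjusted p = 1.3e-05). PMP2, a fatty acid-binding protein of myelin, had 12.2, 14.7 and 12.9 TPM in siCTRL and 4.70, 6.06 and 5.64 TPM with IFNγ (log2 fold change -1.15, standard error 0.10, adjusted p = 5.1e-06), and TMEM37, a calcium channel subunit relative, had 3.59, 3.43 and 3.53 TPM in siCTRL and 1.09, 1.10 and 1.05 TPM with IFNγ (log2 fold change -1.12, standard error 0.11, adjusted p = 8.6e-06). SLC39A7, a zinc transporter of the endoplasmic reticulum, lies in the MHC region (ENSG00000112473, chromosome 6 from 33200305 to 33204439) and had 22.6, 22.5 and 15.2 TPM in siCTRL and 10.2, 6.68 and 8.77 TPM with IFNγ, a log2 fold change of -1.14 that became -0.99 without siCTRL + IFNγ replicate 2. The last 2 IDs are annotated pseudogenes without a symbol, ENSG00000258073, with 2.67, 1.19 and 5.32 TPM in siCTRL and 0, 0.637 and 0 TPM with IFNγ, and ENSG00000228626, with 1.31, 2.45 and 3.86 TPM in siCTRL and 0.386, 1.33 and 0.283 TPM with IFNγ. The second is the only lower ID whose groups overlapped, and its adjusted p of 0.026 became 0.080 to 0.107 without siCTRL replicate 2 or siCTRL + IFNγ replicate 1 or 3.

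Below the fold limit, the largest falls among abundant genes were those of CERK, the ceramide kinase, with 82.4, 101 and 90.3 TPM in siCTRL and 36.9, 54.5 and 46.0 TPM with IFNγ, and PDK4, which inhibits pyruvate dehydrogenase, with 298, 316 and 295 TPM in siCTRL and 146, 175 and 147 TPM with IFNγ. CERK passed the limit without siCTRL replicate 1 (-1.06), without siCTRL + IFNγ replicate 2 (-1.12) and without siCTRL + IFNγ replicate 3 (-1.001), and PDK4 without siCTRL + IFNγ replicate 2 (-1.04). GRIK2, RAB7B, CD96, NT5DC2, SH3TC2, SHROOM3, RAPGEF5 and MMP16 completed the 10 largest, with values from -0.98 to -0.87. On the other side of the limit, PROX1, GOLM1, PI15, HK1 and ANXA2R were the rises just inside it (1.00 to 1.01), and IGFBP2, SSBP4, EXTL1, SLFN5 and DENND4A those just outside (0.98 to 0.99). PROX1 lost its call without siCTRL replicate 3 (0.97) and without siCTRL + IFNγ replicate 2 (0.98) or 3 (0.85). PI15 lost it without siCTRL replicate 1 (0.88) and without siCTRL + IFNγ replicate 2 (0.89) or 3 (0.91). GOLM1 lost it without siCTRL replicate 1 (0.97) and without siCTRL + IFNγ replicate 2 (0.90). ANXA2R lost it without siCTRL replicate 1 (0.93). Quantile normalization removed the calls of ANXA2R (0.58) and PROX1 (0.98).

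Cell cycle genes had slightly lower values with IFNγ across both lists. All 18 DNA replication genes and all 18 mitosis genes had lower values with IFNγ, where 64.6% of all tested IDs did, and none reached the fold limit in the limma fit. At an unadjusted p under 0.05 there were 17 and 16 of them, a limit for which no share of all tested IDs is given. Lower values were also common among ribosomal proteins (18 of 20), housekeeping genes (9 of 10) and oxidative phosphorylation genes (18 of 22), with smaller medians of -0.13, -0.11 and -0.12 and with 4, 2 and 1 genes lower by adjusted p. The median log2 fold change was -0.37 for replication and -0.39 for mitosis against -0.07 for all tested IDs. By adjusted p, 8 of the 18 replication and 14 of the 18 mitosis genes were lower, where 6.37% of tested IDs were. PCNA, the sliding clamp of DNA polymerase, had 443, 485 and 450.2 TPM in siCTRL and 357, 382 and 366 TPM with IFNγ (log2 fold change -0.32, standard error 0.06, adjusted p = 0.0024). CDK1, the kinase that drives entry into mitosis, had 168, 188 and 164 TPM in siCTRL and 138, 147 and 141 TPM with IFNγ (log2 fold change -0.29, standard error 0.07, adjusted p = 0.023), and its partner CCNB1 had 187, 205 and 193 TPM in siCTRL and 148, 173 and 157 TPM with IFNγ (log2 fold change -0.29, standard error 0.07, adjusted p = 0.019). CDC20, an activator of the anaphase-promoting complex, had 167, 169 and 168 TPM in siCTRL and 110.4, 139 and 126 TPM with IFNγ (log2 fold change -0.43, standard error 0.10, adjusted p = 0.013). For these 4 genes the groups did not overlap. RRM2, a ribonucleotide reductase subunit, had 232, 274 and 259 TPM in siCTRL and 140.1, 236 and 206 TPM with IFNγ, and MCM7, a subunit of the replicative helicase, had 225, 253 and 243 TPM in siCTRL and 165, 212 and 199.7 TPM with IFNγ. The groups overlapped for RRM2, its log2 fold change of -0.42 had an adjusted p of 0.13, and for MCM7 the adjusted p was 0.13.

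These counts depended on how the libraries were modelled. With the replicate number as a block, which compares libraries of the same number, 17 replication genes and 16 mitosis genes were lower by adjusted p. Leaving out 1 library moved the mitosis count to 4 without siCTRL replicate 2, 8 without siCTRL replicate 3 and 6 without siCTRL + IFNγ replicate 1 or 3. The replication count was 5 without any one of these 4 libraries and 12 without siCTRL + IFNγ replicate 2. With only the 6 siCTRL libraries in the fit it was 5 for each list, and 17 and 18 when the block was added. The mean over the mitosis list was 6.31, 6.46 and 6.38 log2(TPM + 1) in siCTRL and 5.81, 6.15 and 6.02 with IFNγ, so every treated library was below every untreated one. Over the replication list it was 6.47, 6.65 and 6.56 against 5.96, 6.36 and 6.24. Between libraries of the same number, the median difference over the mitosis list was -0.51, -0.30 and -0.37 and over the replication list -0.48, -0.29 and -0.32 for replicates 1, 2 and 3, while over all tested IDs it was -0.15, -0.02 and -0.03. The difference was thus largest in replicate 1, whose treated library had the high rRNA share of 3.60%, the highest mitochondrial share and the lowest median TPM given above. The part of these in the result was not tested. Among 7 tested genes for cell cycle inhibitors and G1 cyclins, CDKN2B and CDKN2C, both inhibitors of cyclin D kinases, were lower by adjusted p, and none was called. In bulk RNA fewer cycling cells and less RNA of these genes per cell cannot be told apart.

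**Figure D3:**
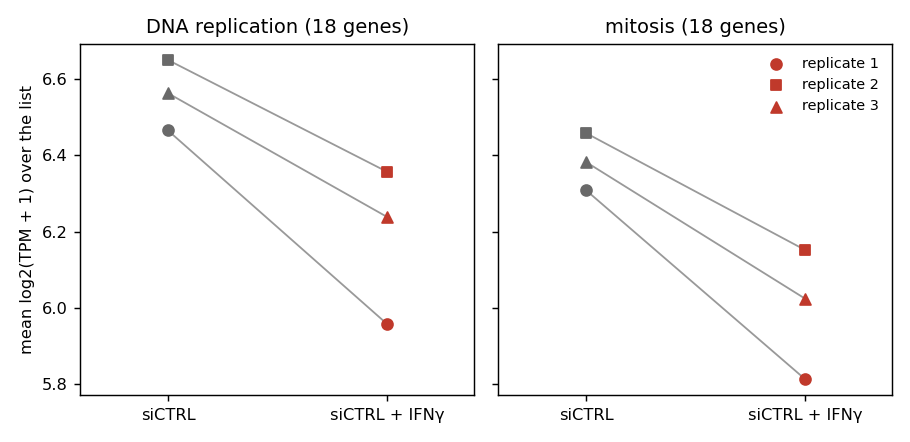
Mean log2(TPM + 1) over 18 DNA replication genes (left) and 18 mitosis genes (right) in each library. Lines join siCTRL and siCTRL + IFNγ libraries with the same replicate number, marked by the symbol. Every line falls, replicate 1 the most, and the treated libraries lie below the untreated ones in both lists.

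The same treatment in siMITF cells, measured in 6 other libraries, gave positive differences for nearly all genes that had risen. The contrast between means uses different libraries, but the fit shares 1 estimate of the spread over all 12, and the replicate numbers pair the 2 sets. Of the 309 IDs 308 had a positive log2 fold change there, where 32.0% of tested IDs did. 304 passed the adjusted p (7.58% of tested IDs higher by it) and 262 passed all thresholds (2.5% of tested IDs). Their median log2 fold change was 2.11 in siMITF and 1.96 in siCTRL cells. Of the 309, 154 had under 2 TPM in siCTRL cells without IFNγ, and values near 0 have little room to fall. They are not counted apart here, and the shares of all tested IDs are not matched for starting level. Of the 13 lower IDs 11 were also lower in siMITF cells, where 68.0% of tested IDs were, 10 passed the adjusted p in that direction (1468 of 12249 tested IDs did, 12%), and only ERVMER34-1 passed the fold limit (-1.12). The 2 exceptions were SLC39A7 (0.11) and the pseudogene ENSG00000258073, at 0.00. The median of the 13 was -0.78 in siMITF cells against -1.14 in siCTRL cells. They were called by the size of their fall in siCTRL cells, so a smaller fall in siMITF cells is partly fixed by that choice. The replication and mitosis lists had medians of -0.54 and -0.68 there, with 12 and 18 of 18 genes lower by adjusted p. The siRNA had lowered its target in those cells, since MITF lay between 36.01 and 55.1 TPM in the 6 siMITF libraries and between 158 and 246 TPM in the 6 siCTRL libraries.

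The size of the response differed between the 2 backgrounds for some genes. The difference of the IFNγ effects passed an adjusted p under 0.05 for 46 of the 309 higher IDs, against 0.604% of all tested IDs, and for 0 of the 13 lower IDs, 7 of which had an unadjusted p under 0.05 (limma). For 36 of the 46 the rise was larger in siMITF cells and for 10 it was larger in siCTRL cells. The 309 and the 13 were picked by their siCTRL effect, which is part of this difference. The counts set against all tested IDs and the split by direction are therefore partly fixed by that choice. With the replicate block the count was 91. CD74 and CXCL10 rose by 4.79 and 7.28 in siCTRL cells and by 6.50 and 9.06 in siMITF cells, whereas CHAC1 rose by 2.01 and 0.45.

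Promoters of the genes that rose held the interferon motifs more often than others. Of 250 called-higher genes with a symbol, 179 had a RefSeq promoter window of 300 bases. The ISRE pattern stood in 50 of them, 27.9% (95% Wilson interval 21.9 to 34.9%), compared with 2.29% of 8907 windows of tested genes not called higher and 3.65% of all 27305 windows. The GAS pattern stood in 29, 16.2% (11.5 to 22.3%), compared with 6.01% and 7.88%. Among 33 windows of genes that rose by a log2 of 3 or more, 48.5% held the ISRE and 36.4% the GAS pattern. Of the 7 windows of called-lower genes 0 held either pattern, which leaves an interval up to 35.4%. The intervals cover counting error only, and genes of one family share ancestry and sequence.

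The genes that rose also sat side by side in the genome. Of the 250 listed in GENCODE 44, 79 (31.6%) were next to another called-higher gene along the tested genes of the chromosome, compared with 4.09% of all tested genes with a position (GENCODE 44, GRCh38). In 12 places 3 or more consecutive tested genes rose, 45 genes in all. The longest run held 7 genes of the GBP cluster on chromosome 1 from 89006679 to 89426243, GBP3, GBP1, PTGES3P1, GBP2, GBP4, GBP5 and GBP1P1. Runs of 4 were the IFIT genes on chromosome 10 (89283694 to 89421605), SP110, SP140, SP140L and SP100 on chromosome 2 (230165186 to 230545606), the APOL genes on chromosome 22 (36140329 to 36267530), CXCL9, ART3, CXCL10 and CXCL11 on chromosome 4 (76001275 to 76114048) and TAP2, PSMB8, PSMB9 and TAP1 on chromosome 6 (32821833 to 32859851). One run of 3, FZD5, C2orf80 and IDH1 on chromosome 2 (207762598 to 208266074), joins genes that belong to no common family. Neighbours from one duplicated family can share reads, so these genes are not independent of each other.

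Outside the lists 134 called-higher genes reported here were listed in GENCODE 44. The largest rises among them were those of HAPLN3, a link protein of hyaluronan, with 0.188, 0.373 and 0.306 TPM in siCTRL and 29.5, 44.3 and 37.3 TPM with IFNγ, and A2M, the protease inhibitor alpha-2-macroglobulin, with 2.17, 2.88 and 2.59 TPM in siCTRL and 75.5, 111 and 105 TPM with IFNγ. PLAAT4, a phospholipase of the retinoic acid-inducible tumour suppressor group, reached 19.0 TPM from 0.0283. FYB1, an adaptor protein best known from T cells, had 1.26, 1.43 and 1.30 TPM in siCTRL and 30.8, 27.7 and 24.1 TPM with IFNγ, and MRAS, a small GTPase of the Ras family, had 2.003, 2.81 and 2.26 TPM in siCTRL and 17.1, 29.0 and 28.1 TPM with IFNγ. Markers of leukocytes were near 0 in the same libraries, with mean TPM without and with IFNγ of 0.212 and 0.300 for PTPRC and 0 in both for CD3E. NNMT, a nicotinamide methyltransferase, RTP4, a chaperone of receptors, and FAM167B rose by 3.33, 3.32 and 3.34. The pseudogenes GBP1P1 and PTGES3P1, both in the GBP cluster, rose by 3.203 and 3.06, and GBP1P1 resembles GBP1 enough that its reads are uncertain. A further 59 called-higher IDs were absent from GENCODE 44 and so had no symbol, and 24 of these had the same values as another ID.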

How the data were processed

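RNA was sequenced from 624Mel cells in 4 conditions with 3 libraries each. The authors used Trimmomatic for trimming and kallisto for quantification against Ensembl transcripts of GRCh38, and deposited TPM summed to Ensembl gene IDs, so each value is a share of 1 scaled total and depends on all other genes of the library. The Ensembl release and the summing step are not given in the sources used here. The authors tested counts with DESeq2, which are not used here. TPM keep no read number, so depth is unknown and neither counting intervals for levels nor detection floors are given.

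Here log2(TPM + 1) was fitted with limma 3.58.1 in R 4.3.3, with 1 coefficient per condition over all 12 libraries and an intensity trend, and two-sided p-values were adjusted by Benjamini-Hochberg over the 12249 IDs that averaged 2 TPM or more in either siCTRL group. The fit was tested on simulated data. Calls required an adjusted p under 0.05 and a log2 fold change of 1 or more in either direction. Symbols and positions came from GENCODE 44, from which 755 tested IDs were absent, and 490 tested IDs had the same values as another ID. IDs that GENCODE 44 lists under an Ensembl ID alone count as listed. In the account of genes called lower they are described as without a symbol. Promoter windows came from RefSeq. Tables used pandas 2.3.3, numpy 2.4.6 and scipy 1.17.1, and plots matplotlib 3.10.9, all in Python 3.11.15.

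The members and the gene lists were chosen with earlier results of these data known. Named genes were every ID called lower, the 10 largest rises, the 10 most abundant called genes, the 10 largest rises outside the lists, the 10 largest falls that missed the fold limit, 5 genes on each side of that limit, and of each list all called members (up to 7 genes) or the 2 largest and the smallest rise, with up to 3 uncalled members. Genes that complete a small count or stand against their list were named after their values were seen. Some genes are not reported here, and lists leave them out.

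Replicate numbers were checked for pairing. After removal of condition means, all 18 pairs of libraries with the same number in different conditions had residual correlations over 0.1 (0.104 to 0.647, and 0.207 to 0.496 for the 3 siCTRL pairs), while pairs with other numbers had a median of -0.21, so the numbers pair the libraries and the blocked fit is given where it changes a result. Alternatives were pseudocounts of 0.1 and 0.5, other filters on low values, quantile normalization, median centring, rescaling without mitochondrially encoded genes, no intensity trend, only the 6 siCTRL libraries, the replicate block, sums by symbol, folds of mean TPM, an adjusted p under 0.01 and each library left out in turn. The 6 siCTRL libraries together with the block were added after seeing the data.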

Additional observations from a re-analysis of the deposited data

Results flagged for a closer look

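The effect of IFNγ in siMITF cells differed from that in siCTRL cells for 21 of the named genes that had risen, by the interaction term of the limma fit at an adjusted p under 0.05. Values in parentheses are differences of log2 effects, siMITF minus siCTRL. The genes were called by their siCTRL effect, which is part of this difference, so counts by direction are partly fixed by that choice. For 19 of the 21 genes the rise was larger in siMITF cells. Among the chemokines these were CXCL9 (1.93), CXCL10 (1.78) and CXCL11 (1.07). The GBP cluster gave GBP4 (1.71), PTGES3P1 (1.53), GBP1P1 (1.27) and GBP2 (0.93), and antigen presentation CD74 (1.71), HLA-F (1.34) and HLA-B (1.00). Complement genes were C4B (1.23) and SERPING1 (0.87), and of the apolipoprotein L and PARP families APOL3 (1.03), APOL2 (0.99) and PARP9 (0.88) differed. The cytokines TNFSF13B (1.79) and IL32 (1.45) and the genes outside the lists FAM167B (1.43) and NNMT (0.99) complete the set. The smallest adjusted p was 8.9e-05 for GBP4 and the largest 0.050 for NNMT.

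The rise was smaller in siMITF cells for 2 genes, CHAC1 (-1.56, adjusted p = 6.0e-04) and IFITM3 (-0.51, adjusted p = 0.012). CHAC1 rose by 2.01 in siCTRL and 0.45 in siMITF cells, and IFITM3 by 2.86 and 2.35. No group had the 4 samples that a search for single outlying libraries needs.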

How the results depend on the processing

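Over 27 alternatives 104 of the 119 named genes that were called kept their call in all that gave a value, 15 lost it in at least 1 and 0 changed sign. The count of IDs called higher stayed within 1.5 times 309 in every alternative (218 to 344), and without single libraries it was 294 to 326. The count called lower was 13 and moved to 28 and 20 with pseudocounts of 0.1 and 0.5, to 51 under quantile normalization and to between 8 and 20 without single libraries. It was 8 without siCTRL + IFNγ replicate 1 and 20 without replicate 2 of that group. The number of called-higher IDs whose IFNγ effect differed between siMITF and siCTRL cells was 46, and it became 30 with a mean of at least 5 TPM required, 77 under quantile normalization, 77 with median centring, 79 after rescaling without mitochondrially encoded genes, 91 with the replicate block and 26 at an adjusted p under 0.01. The cause was not tested. Without single libraries it was 31 to 49. The share of TPM in called-higher genes with IFNγ was 2.59% (2.40% to 2.81% without single libraries) and 4.11% with the replicate block, with all 12 or only the 6 siCTRL libraries, because an rRNA pseudogene was then called. The uncalled MX2 had a difference of 0.05 that turned to -0.0078 under quantile normalization and -0.010 with folds of mean TPM, and ran from -0.096 to 0.32 without single libraries (-0.090 without siCTRL replicate 1, -0.096 without siCTRL replicate 3, 0.32 without siCTRL replicate 2). The numbers pair the libraries, and apart from the cell cycle and stress response counts given above and the count of 91, the block moved no count in this list by over 1.5 times and changed the call of no named gene. In tests without 1 library, the group left with 2 libraries shares the spread of the others. Depth is unknown, which leaves counting error at low TPM unmeasured.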
